A study of Mus musculus with 6 samples.

Results

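Krüppel-like factors are zinc finger transcription factors, and 10 of their genes are described here across cultured mouse cells labelled differentiated female germ stem cells (Dif-FGSC) and female germ stem cells (FGSC). The 10 genes, Klf1, Klf2, Klf3, Klf4, Klf5, Klf6, Klf9, Klf10, Klf11 and Klf13, were taken by symbol from a deposited expression table of 24672 genes. They count as selected on their FPKM levels and on their differences between the groups, which were known when the genes were listed, so those values are given as a description, without p-values. Each group had 3 RNA sequencing libraries, all from C57BL/6 cells beyond passage 20. Dif-FGSC had been moved onto freshly inactivated granulosa cells, in medium with 0.1 µmol/L retinoic acid, 10 ng/mL BMP4 and 10 ng/mL bFGF. FGSC were kept on inactivated STO cells, a fibroblast line, with 10 ng/mL LIF, 20 ng/mL EGF, 10 ng/mL bFGF and 10 ng/mL GDNF. Both media contained 10% fetal bovine serum. Feeder, growth factors and retinoic acid therefore changed together, and their parts cannot be told apart. The length of the treatment is not given in the sources used here, and the labels do not say whether replicates were grown as separate cultures, so errors and p-values cover only the spread between libraries, which may be technical. The table's columns are headed con and dif, and con was read as FGSC, a reading on which every direction below rests.

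All Krüppel-like factors carry 3 zinc fingers at the carboxyl end, with which they bind GC-rich sites and CACCC boxes in promoters and enhancers, and they differ in the protein partners they recruit. Klf1, Klf2, Klf4, Klf5 and Klf6 are grouped as binders of acetyltransferases such as p300, Klf3 recruits the corepressor CtBP, and Klf9, Klf10, Klf11 and Klf13 recruit the corepressor Sin3. Several of them are switched on within minutes to hours by growth factors, hormones or mechanical stress, and in blood cells they take part in lineage choice and in the exit from the cell cycle.

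Among the tested genes of the 10, Klf2 had the largest log2 difference and Klf9 was the one that was lower in Dif-FGSC. Klf6 had the highest level of all 10. The stretches just upstream of these 3 genes are therefore shown. Each is the 250 bases before the start annotated by RefSeq on build GRCm38.p6, 5′ to 3′ on the strand of the gene, at chr8:72318812-72319061 (+), chr19:23140976-23141225 (+) and chr13:5861239-5861488 (+). The expression table was made on another build, mm9, and was joined to these by symbol. Capitals mark GGGCGG and CACCC on either strand and, in Klf2, the consensus site of MEF2, a factor through which the kinase ERK5 is known to act on Klf2.
Klf2: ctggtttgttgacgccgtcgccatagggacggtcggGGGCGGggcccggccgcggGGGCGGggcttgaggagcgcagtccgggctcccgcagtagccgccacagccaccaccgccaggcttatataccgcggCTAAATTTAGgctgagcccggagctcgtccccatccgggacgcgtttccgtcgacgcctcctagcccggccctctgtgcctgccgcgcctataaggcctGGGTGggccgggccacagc
Klf9: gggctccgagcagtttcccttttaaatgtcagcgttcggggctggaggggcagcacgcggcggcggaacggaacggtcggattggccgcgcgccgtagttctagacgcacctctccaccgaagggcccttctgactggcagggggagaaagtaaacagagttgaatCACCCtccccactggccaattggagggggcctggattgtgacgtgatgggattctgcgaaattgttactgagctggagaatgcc
Klf6: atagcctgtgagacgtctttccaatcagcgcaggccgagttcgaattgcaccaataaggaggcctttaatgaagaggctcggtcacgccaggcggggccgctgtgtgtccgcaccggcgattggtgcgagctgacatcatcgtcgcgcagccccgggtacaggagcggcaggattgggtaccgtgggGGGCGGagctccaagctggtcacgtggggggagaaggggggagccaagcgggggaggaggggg
The Klf2 stretch held 1 MEF2 consensus site, ctaaatttag, which starts 118 bases before the annotated start and reads the same on both strands. Such a site occurred in 0.508% of 32851 mouse promoter windows of this length. RefSeq windows were at hand for 8 of the 10 genes, all but Klf5 and Klf10, and Klf2 was the one with a match. GGGCGG was present in 6 of the 8 windows, including those of Klf2 and Klf6, against 32.7% of all windows, and CACCC in 5, including those of Klf2 and Klf9, against 52.0%. G and C made up 71.2% of the Klf2 window, 59.6% of that of Klf9 and 64.8% of that of Klf6. The median over all windows was 52.4%, and the shares were not matched for this content. GATAA, the core bound by GATA factors, was present in the Klf1 window alone of these 8 and in 22.6% of all windows. None of the 8 windows held a serum response element (1.47% of all windows), the AP-1 site TGACTCA (4.46%) or the full glucocorticoid response element (0.00913%). All motifs were searched on both strands, no marked matches overlapped, and a match or its absence is a description of these letters only.

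Levels are given in FPKM, fragments per kilobase of transcript per M (mega) mapped fragments. Being per length, they can be set side by side between genes, unless a listed value is a mean over several rows of one symbol. Of genes above 0, 35.8% had values with the digits such a mean would give, and Klf10 was among them. The steps between low values implied 19.5 to 22.5 M fragments in the Dif-FGSC libraries and 17.3 to 27.1 M in the FGSC libraries. A floor of 3 fragments is 0.0667 to 0.0768 FPKM in Dif-FGSC and 0.0553 to 0.0869 FPKM in FGSC for a transcript of 2000 bases. The cell type in the labels went against its markers. Of 12 germ cell markers, 10 stayed below 0.1 FPKM in every library, with Dazl, Gfra1, Nanos3, Dnd1, Sycp3 and Figla listed at 0 throughout, and the summed level was 0.606 to 0.929 FPKM in Dif-FGSC and 0 to 0.0837 FPKM in FGSC, with Zbtb16 making up most of the Dif-FGSC sum. In contrast, blood cell markers summed to 616 to 640 FPKM in Dif-FGSC and 455 to 477 FPKM in FGSC, and 6 of 10 were above a mean of 1 FPKM, while Cd3e was listed at 0 in all libraries. Against the direction of that sum, the macrophage antigen gene Adgre1 fell to 4.28 ± 0.173 FPKM in Dif-FGSC, against 20.3 ± 0.324 FPKM in FGSC (limma adjusted p = 4.18e-08). Mast cell and basophil markers summed to 378 to 398 FPKM in Dif-FGSC and 315 to 353 FPKM in FGSC, with 3 of 10 above a mean of 1 FPKM and Tpsb2 listed at 0. Most of both sums came from Cpa3 (means of 301 and 288 FPKM) and Srgn (74.1 and 51.4 FPKM). In Dif-FGSC and FGSC, Mcpt8 had means of 8.21 and 0.596 FPKM, and Cma1 had means of 1.24 and 0.0288 FPKM. Further markers of the list were near 0 in both groups. Among them, Ms4a2 had means of 0.0596 and 0.133 FPKM, Hdc 0.0697 and 0.0744 FPKM, and Fcer1a did not exceed 0.0431 FPKM. Feeder markers were scarce: none of 10 fibroblast and none of 8 granulosa cell markers reached a mean of 1 FPKM. The fibroblast list summed to 0.218 to 0.393 FPKM in Dif-FGSC and 0.336 to 0.636 FPKM in FGSC, with Col3a1 and Lum at 0 throughout. The granulosa list summed to 0.272 to 0.452 FPKM in Dif-FGSC and 0.411 to 0.615 FPKM in FGSC, with 6 of 8 markers at 0 throughout, Foxl2 and Fshr among them. A listed 0 can be a failed estimate in this table, so markers listed at 0 are not shown to be absent. The groups are called by their labels below.

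Between Dif-FGSC and FGSC, the sum of the 10 genes was higher in every Dif-FGSC library than in any FGSC library. Among the 6 of them that were tested, the largest differences in log2(FPKM + 1) were those of Klf2, which was higher, and Klf9, which was lower. The 10 genes summed to 39.0, 38.5 and 38.1 FPKM in Dif-FGSC, against 30.7, 27.9 and 32.6 FPKM in FGSC. Klf6 made up 47.6% ± 0.885 of this sum in Dif-FGSC and 53.5% ± 1.60 in FGSC (SD, n = 3 each). Klf2 made up 12.2% ± 0.702 in Dif-FGSC and 1.89% ± 0.588 in FGSC, and Klf9 made up 3.70% ± 0.194 in Dif-FGSC and 9.57% ± 0.706 in FGSC. The sums and shares take Klf10 at its listed level, which may be below its total. In bulk libraries a change in the number of cells that make a transcript and a change in its amount per cell cannot be told apart.

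**Figure D1:**
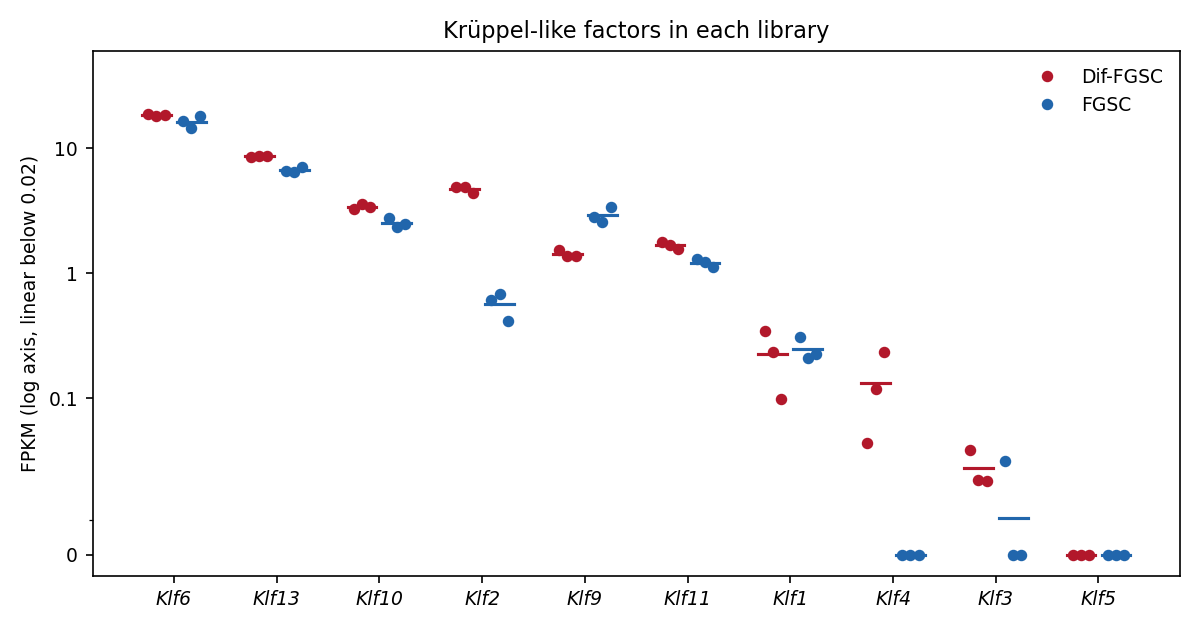
FPKM of the 10 Krüppel-like factor genes in each library (vertical axis, logarithmic above 0.02 and linear below), with Dif-FGSC in red left of FGSC in blue; points are single libraries and lines are means of 3. Klf2 stands between 4.36 and 4.91 FPKM in Dif-FGSC and between 0.411 and 0.679 FPKM in FGSC, Klf9 lies the other way round, and Klf4, Klf3 and Klf5 are at or near 0.

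Of the 10 genes, 6 had a mean of at least 1 FPKM over the 6 libraries and entered a limma fit over all 9162 such genes. On log2(FPKM + 1), with a Benjamini-Hochberg adjusted p under 0.05 as the call, 4 of the 6 were higher in Dif-FGSC, where 36.5% of all tested genes were, and 1 was lower, where 28.6% were. In all, 65.1% of tested genes were called. The groups did not overlap for 5 of the 6 genes, where they did not for 70.7% of all tested genes. All Dif-FGSC libraries were above all FGSC libraries for 4 of them (39.6% of all tested genes) and below for 1 (31.0%). Nothing is read from these counts, since the genes were chosen with the contrast known. Klf2 had passed the filter only through Dif-FGSC, its mean in FGSC being below 1 FPKM.

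Among the acetyltransferase-binding members, Klf2, a factor known for holding T cells in quiescence and for the response of blood vessel lining to flow, had the largest difference. It stood at 4.87, 4.91 and 4.36 FPKM in Dif-FGSC, against 0.604, 0.679 and 0.411 FPKM in FGSC. Every Dif-FGSC library was above every FGSC library, and the ratio of the mean FPKM was 8.34. The difference was 1.87 ± 0.078 (SE) in log2(FPKM + 1), where the change of so low a gene looks smaller than in FPKM, and it ranked 48th among rises of the 9162 tested genes. An estimated 158.5 to 202.5 fragments lay behind the Dif-FGSC values and 13.1 to 30.3 behind the FGSC values, so counting error alone is sizeable in FGSC.

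Klf6, a broadly made factor that also acts in inflammatory activation of myeloid cells, was the highest of the 10 genes in every library. It stood at 18.7, 17.9 and 18.4 FPKM in Dif-FGSC, against 16.4, 14.5 and 17.9 FPKM in FGSC. The groups overlapped at their edges, and the difference was 0.17 ± 0.069 (SE) on the log2(FPKM + 1) scale, against 0.08 after quantile normalization, 0.09 without replicate 2 of FGSC and 0.24 without replicate 3 of FGSC. The spread among FGSC libraries (SD 1.73 FPKM) was wider than among Dif-FGSC libraries (SD 0.398 FPKM).

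Klf1, the red cell factor that binds the CACCC box of the beta-globin gene, was low and did not separate the groups. It stood at 0.346, 0.232 and 0.0985 FPKM in Dif-FGSC, against 0.310, 0.208 and 0.225 FPKM in FGSC. These values correspond to an estimated 11.9, 6.9 and 3.0 fragments in Dif-FGSC and 12.9, 6.9 and 5.9 in FGSC. A difference between the groups was not detectable at this depth.

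Klf4, a factor of gut and skin epithelium, of monocytes and of the pluripotent state, was listed at 0.0436, 0.117 and 0.232 FPKM in Dif-FGSC and at 0 in all 3 FGSC libraries. The Dif-FGSC values correspond to an estimated 3.0, 6.9 and 13.8 fragments. For the FGSC libraries the floor of 3 fragments allows 0.0365 to 0.0573 FPKM, and since a listed 0 can be a failed estimate in this table, no fold is given. Replicate 3 of Dif-FGSC was the highest of its group. The partners of Klf4 in the pluripotent state did not accompany it: Pou5f1, Sox2, Nanog, Esrrb, Tbx3 and Tfcp2l1 all stayed below 0.1 FPKM in every library. Klf5, a factor of proliferating gut epithelium, was listed at 0 in all 6 libraries. The floor there allows 0.0330 to 0.0517 FPKM, and more if the listed 0 is a failed estimate. Epithelial markers were likewise near 0, with 5 of 6 listed at 0 throughout and a highest single value of 0.0130 FPKM.

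Klf3, the CtBP-recruiting member, which in red cells is a target of Klf1, was at the floor. It was listed at 0.0382, 0.0220 and 0.0218 FPKM in Dif-FGSC, against 0.0316, 0 and 0 FPKM in FGSC, an estimated 2.2 to 4.5 fragments wherever it was above 0. No difference was detectable at this depth. An antisense transcript is annotated across Klf3 in GENCODE M21, and how strand was used in counting is not given in the sources used here.

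Among the Sin3-recruiting members, Klf9 was lower in Dif-FGSC and Klf10, Klf11 and Klf13 were higher. Klf9, a factor induced by glucocorticoids and thyroid hormone, stood at 1.53, 1.37 and 1.37 FPKM in Dif-FGSC, against 2.79, 2.57 and 3.38 FPKM in FGSC. All Dif-FGSC libraries were below all FGSC libraries, and the ratio of means was 0.489. The difference was -0.69 ± 0.081 (SE) on the log2(FPKM + 1) scale. The level in replicate 3 of FGSC was the highest, and without that library the difference was -0.60. The macrophage marker Adgre1 was lower in Dif-FGSC as well, and its part in this result was not tested.

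Klf13, which drives a chemokine gene in late-activated T cells, was the highest of this group. It stood at 8.46, 8.61 and 8.71 FPKM in Dif-FGSC, against 6.49, 6.43 and 7.02 FPKM in FGSC. The groups were apart, with a ratio of means of 1.29 and a difference of 0.33 ± 0.043 (SE) on the log2(FPKM + 1) scale. The protein-coding gene E030018B13Rik is annotated on the opposite strand, overlapping Klf13, in GENCODE M21 and was listed at 0 in every library. The processed transcript Gm27252, also annotated there on the opposite strand, was not among the listed genes, so its level is not known.

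Klf10 and Klf11 were first described as early genes induced by TGF-beta. Klf10 was listed at 3.26, 3.58 and 3.36 FPKM in Dif-FGSC, against 2.75, 2.33 and 2.48 FPKM in FGSC, without overlap and with a difference of 0.32 ± 0.059 (SE) on the log2(FPKM + 1) scale. Its values have more digits than the 6 of most rows and become values of at most 6 digits when multiplied by 3, as a mean of 3 rows of one symbol would. If those rows are transcripts of Klf10, the listed level is below the gene's total, and its place among the levels of the family is uncertain. Klf11 stood at 1.78, 1.69 and 1.56 FPKM in Dif-FGSC, against 1.30, 1.23 and 1.11 FPKM in FGSC, again without overlap, with a difference of 0.27 ± 0.060 (SE).

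The order of the levels changed with the group mainly through Klf2 and Klf9. In Dif-FGSC the means descended from Klf6 (18.3 FPKM) through Klf13 (8.59), Klf2 (4.71), Klf10 (3.40), Klf11 (1.67), Klf9 (1.43), Klf1 (0.226), Klf4 (0.131) and Klf3 (0.0273) to Klf5 (0). Among these neighbours only Klf1 and Klf4 had libraries that overlapped. In FGSC the means descended from Klf6 (16.3 FPKM) through Klf13 (6.65), Klf9 (2.92), Klf10 (2.52), Klf11 (1.21), Klf2 (0.565), Klf1 (0.248) and Klf3 (0.0105) to Klf4 and Klf5 (0). There Klf9 and Klf10 overlapped, as did Klf3, Klf4 and Klf5. By listed means, Klf2 was thus the third highest member in Dif-FGSC and the sixth in FGSC, and Klf9 the sixth in Dif-FGSC and the third in FGSC. These ranks take Klf10 at its listed level and may shift if its total is higher.

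The genes whose profile over the 6 libraries lay closest to Klf2 and Klf9 were found by the root mean square difference of log2(FPKM + 1), centred on its mean. For Klf2 these were Tshz1 (0.0588), a zinc finger factor, Elac2 (0.0876), a tRNA-processing nuclease, and Arid1a (0.0928), a subunit of a chromatin remodeller. Tshz1 stood at 8.59 ± 0.187 FPKM in Dif-FGSC and 1.60 ± 0.321 FPKM in FGSC (SD, n = 3 each). For Klf9 they were Havcr2 (0.0289), the receptor TIM-3 of immune cells, Snx24 (0.0344), a sorting nexin, and Akap9 (0.0389), an anchor of protein kinase A. Havcr2 stood at 5.47 ± 0.268 FPKM in Dif-FGSC and 9.37 ± 0.796 FPKM in FGSC. With 2 groups of 3, such likeness mostly reflects a difference of like size between the groups.

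Of 7 other Krüppel-like factors, 2 reached the filter and were tested. Klf16, another Sin3-recruiting factor, rose to 40.0 ± 0.784 FPKM in Dif-FGSC, against 25.4 ± 2.39 FPKM in FGSC (log2 difference 0.64 ± 0.062 SE, limma adjusted p = 8.01e-05), and in every library it was above Klf6. Klf7, known for its part in the growth of axons, fell to 7.67 ± 0.169 FPKM in Dif-FGSC, against 8.61 ± 0.475 FPKM in FGSC (limma adjusted p = 0.0235), a call that was lost when any of 4 of the 6 libraries was left out, with adjusted p of 0.0588 to 0.0775. Klf8, which like Klf3 binds CtBP, was below the filter at 0.869 ± 0.0193 FPKM in Dif-FGSC and 0.645 ± 0.0570 FPKM in FGSC. Klf12, Klf14 and Klf15 were listed at 0 in every library, and Klf17 did not exceed 0.0639 FPKM. Neither CtBP-binding relative of Klf3 thus reached a mean of 1 FPKM.

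The SP factors share the zinc fingers and GC-rich sites of the family, and 4 of the 9 listed were tested, with 1 higher and 1 lower, where 36.5% and 28.6% of all tested genes were. Sp1 rose to 15.0 ± 0.478 FPKM in Dif-FGSC, against 10.6 ± 0.523 FPKM in FGSC (log2 difference 0.46 ± 0.045 SE, limma adjusted p = 7.68e-05). Sp4 fell to 1.05 ± 0.0489 FPKM in Dif-FGSC, against 1.34 ± 0.101 FPKM in FGSC (adjusted p = 0.0198), a call lost without replicate 2 or 3 of Dif-FGSC (0.0593 and 0.0539). Sp3 stood at 13.3 ± 0.232 FPKM in Dif-FGSC and 13.1 ± 0.483 FPKM in FGSC (adjusted p = 0.593), and Sp2 at 4.40 ± 0.0918 FPKM in Dif-FGSC and 3.88 ± 0.391 FPKM in FGSC (adjusted p = 0.0623, and 0.00700 without replicate 2 of FGSC).

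**Figure D2:**
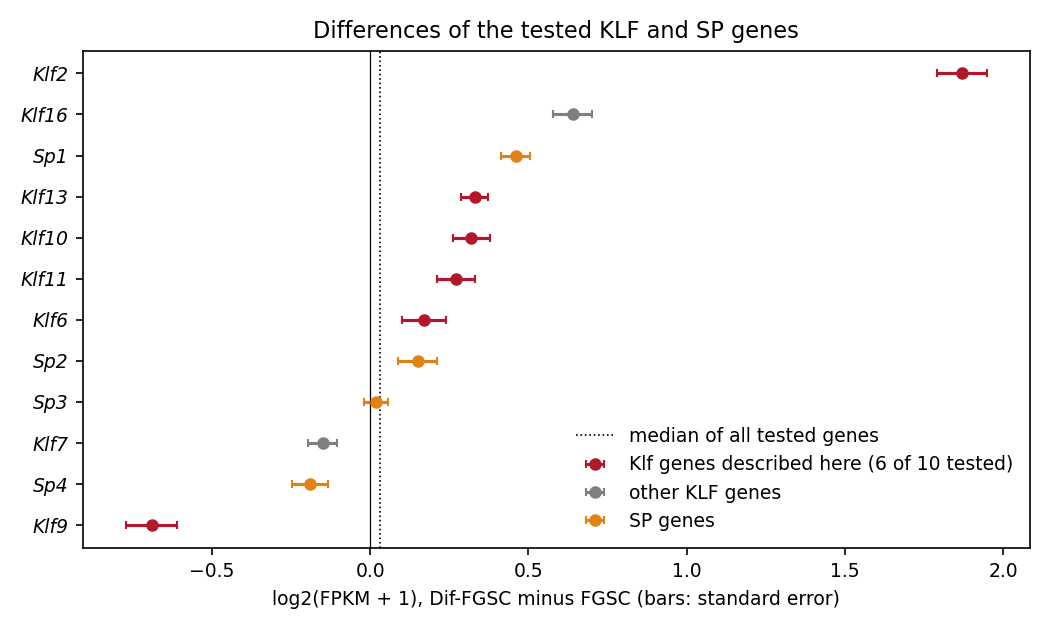
Difference of log2(FPKM + 1) between Dif-FGSC and FGSC (horizontal axis, Dif-FGSC minus FGSC) for the tested Klf and Sp genes, with standard errors from the limma fit; the dotted line is the median of all 9162 tested genes, 0.03. Klf2 lies at 1.87 and Klf9 at -0.69, and the other 10 genes lie between -0.19 and 0.64.

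Of the 9 listed genes for proteins that the factors recruit, all but Ctbp2 reached a mean of 1 FPKM in both groups. Ctbp2 was listed at 0.0988, 0.0601 and 0.0661 FPKM in Dif-FGSC and at 0, 0 and 0.0151 FPKM in FGSC. Only transcripts were measured. Tests covered 8 of 9 cofactor genes, and 3 were higher and 2 lower, near the 36.5% and 28.6% of all tested genes, with a median log2 difference of 0.07, where that of all tested genes was 0.03. Crebbp, the acetyltransferase CBP, rose to 2.81 ± 0.222 FPKM in Dif-FGSC, against 1.49 ± 0.140 FPKM in FGSC (limma adjusted p = 0.000128). The related Ep300 rose to 16.3 ± 0.733 FPKM in Dif-FGSC, against 13.9 ± 1.40 FPKM in FGSC (adjusted p = 0.0253), a call lost without the filter (0.0582), after quantile normalization (0.0999) and, with adjusted p of 0.0591 to 0.0866, when any of 4 libraries was left out. Ctbp1, the corepressor of Klf3, rose to 32.5 ± 0.946 FPKM in Dif-FGSC, against 27.6 ± 1.19 FPKM in FGSC (adjusted p = 0.00171). The deacetylase Hdac2 fell to 55.0 ± 0.128 FPKM in Dif-FGSC, against 71.0 ± 2.19 FPKM in FGSC (adjusted p = 3.72e-05), and Hdac1 also fell (adjusted p = 0.00701). The Sin3 scaffold genes were not called: Sin3a stood at 4.29 ± 0.186 FPKM in Dif-FGSC and 3.92 ± 0.124 FPKM in FGSC, and Sin3b at 40.9 ± 0.429 FPKM in Dif-FGSC and 39.8 ± 0.788 FPKM in FGSC. Of 6 ubiquitin ligases that include known regulators of Klf2 and Klf5, 4 were tested, with 2 higher and 1 lower, beside the same shares. Smurf1 rose to 6.95 ± 0.317 FPKM in Dif-FGSC, against 5.34 ± 0.176 FPKM in FGSC (adjusted p = 0.000502), Smurf2 rose to 7.48 ± 0.242 FPKM, against 6.22 ± 0.674 FPKM in FGSC (adjusted p = 0.0184, 0.144 after quantile normalization and 0.0638 without replicate 3 of Dif-FGSC), and Siah1a fell to 4.71 ± 0.498 FPKM, against 5.72 ± 0.0235 FPKM in FGSC (adjusted p = 0.0136). Wwp1, a ligase for Klf2 and Klf5, was just below the filter, at 0.977 to 1.02 FPKM in Dif-FGSC and 0.917 to 1.07 FPKM in FGSC.

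The kinases MEK5 and ERK5 and the MEF2 factors form the known route to Klf2 and Klf4, and all 4 of its tested genes were higher in Dif-FGSC, where 36.5% of all tested genes were, with a median log2 difference of 0.46 beside 0.03 for all tested genes. Mef2d, which encodes a protein that binds the MEF2 site, rose to 8.38 ± 0.115 FPKM in Dif-FGSC, against 5.28 ± 0.166 FPKM in FGSC (log2 difference 0.58 ± 0.038 SE, limma adjusted p = 1.22e-05). Map3k2, a kinase that activates MEK5, rose to 2.90 ± 0.185 FPKM in Dif-FGSC, against 1.63 ± 0.121 FPKM in FGSC (adjusted p = 0.00011). Its relative Map3k3 rose to 15.9 ± 0.462 FPKM, against 12.9 ± 0.448 FPKM in FGSC, and Map2k5, which encodes MEK5, rose to 13.7 ± 0.864 FPKM, against 10.6 ± 1.42 FPKM in FGSC. The remaining genes of the list were below the filter. Mapk7, which encodes ERK5, stood at 1.15 ± 0.0894 FPKM in Dif-FGSC and 0.643 ± 0.130 FPKM in FGSC, Mef2a stood at 0.984 ± 0.0258 FPKM in Dif-FGSC and 0.796 ± 0.0488 FPKM in FGSC, and Mef2b and Mef2c were listed at 0. These are transcript levels, and the activity of the kinases was not measured.

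Immediate early genes are switched on fast by growth factors, as several Krüppel-like factors are. Tests covered 14 of the 20 listed, and 11 were higher and 1 lower, where 36.5% and 28.6% of all tested genes were, with a median log2 difference of 0.84. Of the 14, 4 passed the filter only through Dif-FGSC, where they are high, and so had to differ: Fos, Fosb, Egr1 and Atf3. These 4 are among the 11 and enter the median, so nothing is read from that count or median. Fos stood at 14.1 ± 0.398 FPKM in Dif-FGSC, against 0.461 ± 0.0487 FPKM in FGSC (log2 difference 3.37 ± 0.046 SE), as a description only. Egr1, Fosb and Junb had log2 differences of 2.75, 2.49 and 1.43. The lower gene was Nr4a1, a nuclear receptor, at 4.13 ± 0.153 FPKM in Dif-FGSC and 5.45 ± 0.272 FPKM in FGSC (adjusted p = 0.000625). The difference of Klf2, 1.87, lay between those of Fosb and Junb, and those of the other tested members were smaller than that of Junb.

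The TGF-beta pathway induces Klf10 and Klf11. Tests covered 9 of its 15 listed genes, with 7 higher and 1 lower, where 36.5% and 28.6% of all tested genes were, and a median log2 difference of 0.40. Tgfb1, the ligand, rose to 302 ± 3.62 FPKM in Dif-FGSC, against 153 ± 11.6 FPKM in FGSC (limma adjusted p = 4.06e-06). Among the signal carriers, Smad4 rose to 17.5 ± 1.01 FPKM in Dif-FGSC, against 7.50 ± 0.155 FPKM in FGSC (adjusted p = 1.55e-06), and Smad3 rose to 2.53 ± 0.174 FPKM, against 1.25 ± 0.128 FPKM in FGSC. Tgif1, a corepressor of the pathway, rose to 2.91 ± 0.189 FPKM in Dif-FGSC, against 1.85 ± 0.111 FPKM in FGSC. Smad7, an inhibitor of the pathway that Klf10 is known to repress, rose to 2.56 ± 0.0914 FPKM in Dif-FGSC, against 1.73 ± 0.196 FPKM in FGSC (adjusted p = 0.00117). The receptor gene Tgfbr1 was the lower member, at 4.71 ± 0.303 FPKM in Dif-FGSC and 5.92 ± 0.444 FPKM in FGSC (adjusted p = 0.0055).

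The glucocorticoid list held the receptor gene Nr3c1 and genes that glucocorticoids induce, as they do Klf9. Tests covered 5 of the 9 listed, with 2 higher, Nr3c1 and Per1, and 2 lower, where 36.5% and 28.6% of all tested genes were. Tsc22d3, the leucine zipper protein GILZ, fell to 1.47 ± 0.0423 FPKM in Dif-FGSC, against 6.39 ± 0.328 FPKM in FGSC (log2 difference -1.58 ± 0.049 SE, limma adjusted p = 4.47e-07). Fkbp5, a co-chaperone of the receptor, fell to 33.2 ± 0.453 FPKM in Dif-FGSC, against 46.2 ± 0.574 FPKM in FGSC (adjusted p = 7.48e-06). Per1, a clock gene, rose to 5.14 ± 0.108 FPKM in Dif-FGSC, against 4.51 ± 0.136 FPKM in FGSC (adjusted p = 0.0111), a call lost after quantile normalization (0.185). Ddit4, a stress-induced inhibitor of the kinase mTOR, stood at 32.1 ± 1.04 FPKM in Dif-FGSC and 38.7 ± 5.98 FPKM in FGSC (adjusted p = 0.0505), and it was called lower under 6 of the alternatives, with adjusted p of 0.0114 to 0.0484. Nr3c1 was listed at 19.8, 20.2 and 19.9 FPKM in Dif-FGSC and at 0 in every FGSC library, which can be a failed estimate, so no fold is given, and it passed the filter only through Dif-FGSC. Zbtb16, below the filter, was listed at 0.433, 0.478 and 0.749 FPKM in Dif-FGSC and at 0 in FGSC. Sgk1 and Hsd11b1, also below it, were higher in every Dif-FGSC library than in any FGSC library. Their means were 0.225 and 0.686 FPKM in Dif-FGSC, against 0.102 and 0.448 FPKM in FGSC. Cebpd was listed at 0 in every library.

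**Figure D3:**
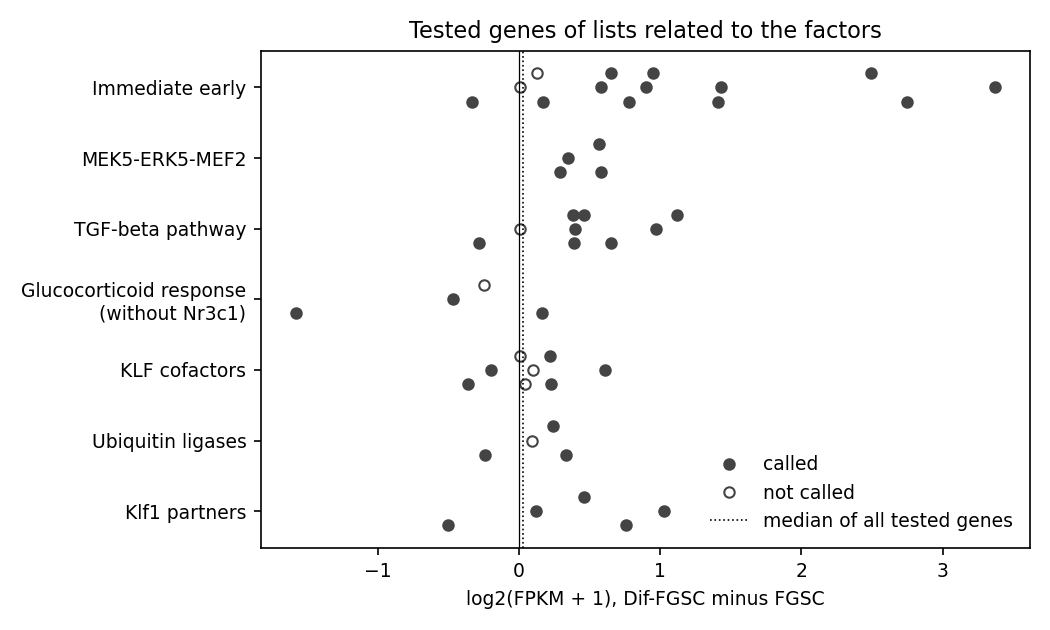
Difference of log2(FPKM + 1) between Dif-FGSC and FGSC (horizontal axis) for the tested genes of 7 lists related to the factors; filled points were called and open points were not, and the dotted line is the median of all tested genes, 0.03. The 4 genes of the MEK5, ERK5 and MEF2 list lie between 0.29 and 0.58, and the point furthest left is Tsc22d3 at -1.58; Nr3c1, listed at 0 in FGSC, is not drawn.

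Most known targets of Klf1 in red cells were near 0, while genes of its partner proteins were expressed. In all 6 libraries, 15 of 17 target genes were below 0.1 FPKM, the globin genes among them. The tested one, E2f2, a cell cycle factor, fell to 2.06 ± 0.0249 FPKM in Dif-FGSC, against 3.05 ± 0.150 FPKM in FGSC (limma adjusted p = 0.000208). Bcam, below the filter, went the other way without overlap. It stood at 1.05 ± 0.111 FPKM in Dif-FGSC and 0.452 ± 0.0698 FPKM in FGSC. All 5 partner genes were tested, with 4 higher and 1 lower, where 36.5% and 28.6% of all tested genes were. Zfpm1, the GATA cofactor FOG1, rose to 45.3 ± 2.38 FPKM in Dif-FGSC, against 21.7 ± 1.00 FPKM in FGSC (adjusted p = 2.89e-06), and Gata1 rose to 3.71 ± 0.0482 FPKM, against 1.77 ± 0.166 FPKM in FGSC (adjusted p = 1.81e-05). Tal1, a blood progenitor factor, rose to 12.9 ± 0.413 FPKM in Dif-FGSC, against 9.07 ± 0.0801 FPKM in FGSC. Lmo2, an adaptor of the same complex, fell to 2.23 ± 0.182 FPKM in Dif-FGSC, against 3.59 ± 0.223 FPKM in FGSC (adjusted p = 0.00024).

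Of 7 genes known as targets of Klf2 in lymphocytes and vessels, 2 were tested and both were higher, as were 36.5% of all tested genes. Cdkn1a, the cell cycle inhibitor p21, rose to 46.1 ± 0.491 FPKM in Dif-FGSC, against 25.8 ± 2.14 FPKM in FGSC (limma adjusted p = 1.33e-05). Itgb7, an integrin of lymphocytes and mast cells, rose to 88.3 ± 0.988 FPKM in Dif-FGSC, against 48.8 ± 3.52 FPKM in FGSC (adjusted p = 6.64e-06). S1pr1, Thbd and Nos3, which Klf2 raises in T cells or endothelium, were listed at 0 in every library. Markers of endothelium, a cell type that makes Klf2, summed to 0.478 to 0.543 FPKM in Dif-FGSC and 0.0941 to 0.134 FPKM in FGSC, with Cdh5, Tek and Tie1 at 0 throughout and none of 6 at a mean of 1 FPKM. Mcpt8, a protease gene of the mast cell and basophil list, moved in the same direction as Klf2. It stood at 8.81, 8.68 and 7.15 FPKM in Dif-FGSC and 0.480, 0.762 and 0.548 FPKM in FGSC. Mcpt8 passed the filter only through Dif-FGSC and was picked after its values were seen. Cpa3, of the same list, stood at 301 ± 10.5 FPKM in Dif-FGSC and 288 ± 19.0 FPKM in FGSC. The part of a change in cell types in the difference of Klf2 was not tested.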

How the data were processed

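RNA sequencing libraries of 3 Dif-FGSC and 3 FGSC samples came from Trizol-extracted RNA and a KAPA stranded mRNA kit, per the labels' protocols. The authors deposited FPKM values, 1 row per gene symbol and 1 column per library. HISAT2 4.8.2, Cufflinks 2.2.1 and build mm9 are named in the submitters' processing notes, without their roles; annotation and strand setting were not given in the sources used here. Of 14637 genes above 0, 35.8% had values with more than 6 significant digits, as means over several rows would. For 2 duplicated symbols the higher row was used; 1 stray value beyond the library columns was left out.

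Genes with a mean of at least 1 FPKM (9162) entered limma 3.58.1 under R 4.3.3 (lmFit and eBayes with trend, log2(FPKM + 1), no covariates); calls had a Benjamini-Hochberg adjusted p under 0.05. FPKM are not counts, and count models were left out. With 3 against 3, an exact permutation test cannot give a p below 0.1. The script was tested on simulated data. Members, lists, tests and alternatives were chosen with earlier results of these data known. Named genes were the 10 members, tested KLF and SP genes, up to 4 called, non-overlapping members of each other list by size of difference, and the 3 nearest profiles of Klf2 and Klf9. Sin3a, Sin3b, Hdac1, Nr4a1, Ddit4, Atf3, Adgre1, Tgfbr1, Smad7, Mcpt8, Cpa3 and genes below the filter were added after their values were seen. Depth came from steps between low values of 4428 genes with 1 transcript in GENCODE M21; 72.7% to 76.3% of low values lay within 0.1 of a whole fragment, where chance gives 20%, and the step was set on these values. Fragment numbers use the longest transcript and cover counting error only. Alternatives covered pseudocount, filter, scaling, replicate block and each left-out library.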

Additional observations from a re-analysis of the deposited data

How the results depend on the processing

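The tested members kept their direction under every alternative that gave them a value, and their calls held except that Klf6 was called with the replicate block and without FGSC replicate 3. Its log2 difference of 0.17 was 0.24 without FGSC replicate 3, 0.09 without FGSC replicate 2 and 0.08 after quantile normalization. A filter at 5 FPKM left only Klf6 and Klf13. Log2 differences depended on the pseudocount by construction: with 0.1 FPKM they were 2.88 for Klf2, -0.97 for Klf9, 0.42 for Klf10 and 0.43 for Klf11, and with 0.5 FPKM they were 2.30, -0.82, 0.37 and 0.34. After quantile normalization that of Klf13 was 0.24. Leaving out each library in turn gave 1.80 to 1.92 for Klf2 and -0.75 to -0.60 for Klf9. Over all genes, 3343 were higher and 2622 lower; median-ratio scaling gave 3061 and 2960, and quantile normalization 2793 and 3182. Dropping the filter, which adds genes, raised the calls in the glucocorticoid list to 7 (4 before) and in the Klf2 target list to 4 (2 before). A filter at 5 FPKM, which removes genes, left 1 call among SP factors, 4 in the TGF-beta list and 3 among Klf1 partners. Leaving out each library gave 1 to 2 calls among the other KLF genes and 1 to 3 among SP factors. Calls were also followed for 64 genes: every tested gene of the lists other than members and markers, and the nearest profiles of Klf2 and Klf9. None of their calls changed sign, while 17 gene-by-setting values lost a call and 10 gained one. Same-numbered libraries of the 2 groups deviated together with correlations of 0.131, 0.012 and 0.173 across genes, against -0.218 to 0.106 for different-numbered libraries. These values do not settle whether the numbers are pairs, and the main fit did not take them as such. With the replicate block 3241 genes were higher and 2557 lower. Depth limits Klf1, Klf3, Klf4 and Klf5, which rest on few or no fragments.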
